A study of Homo sapiens with 12 samples.

Results

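The response of DLD1 cells to an siRNA against BRG1 was described across all genes. DLD1 is an established human colorectal cancer line. Its 6 arrays, of 12 in the series, fell into cells given a control siRNA (siControl, n = 3) and cells given siBRG1 (n = 3). The other 6 arrays held HCT 116, a further colorectal cancer line, also labelled siControl or siBRG1. Each sample's total RNA went onto 1 biotin-labelled Affymetrix array. All 17687 genes with 1 symbol were members of the comparison, and none was chosen by its value. Knockdown by siRNA is transient and partial. Sequences and dose of the siRNAs and how long cells were treated were not known here.

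BRG1, the product of SMARCA4, is an ATPase that moves and ejects nucleosomes. It is the motor of the SWI/SNF (BAF) chromatin remodelling complexes, in which the related ATPase BRM, the product of SMARCA2, can take its place. In the intestinal epithelium SWI/SNF complexes open enhancers and promoters for lineage factors and for the Wnt pathway, and the series concerned the part of BRG1 in intestinal tumour stem cells.

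The targeted gene is given first. SMARCA4 (Entrez gene 6597) read 10.31, 9.95 and 10.29 on the log2 scale in siControl arrays 1, 2 and 3, and 6.29, 6.55 and 6.31 in siBRG1 arrays 1, 2 and 3. The groups lay far apart, and the siBRG1 values lay below the median gene of every DLD1 array (6.79 to 6.92). The change was −3.80 (SE 0.21, limma adjusted p = 4.56e-07). An exact 2-sided permutation test gave p = 0.1, the smallest value that 3 arrays against 3 allow. SMARCA2 read 7.87, 7.48 and 6.73 in siControl and 6.89, 7.38 and 6.69 in siBRG1. Its groups overlapped, and the change of −0.38 (SE 0.32) did not pass (limma adjusted p = 0.778).

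Of the other complex members, BCL7B, a small subunit bound near the ATPase, was the only gene called in any of the 3 fits described below among 14 core and shared subunits, 5 BAF-specific subunits and 7 subunits of PBAF and GBAF. It read 9.80, 9.53 and 9.52 in siControl and 9.04, 7.88 and 8.03 in siBRG1, without overlap. Its change of −1.30 passed with the replicate number in the fit (limma adjusted p = 0.0205 with a block shared by all groups and 0.0329 with a block within each line) and did not pass without it (0.0914). DPF2, a BAF-specific subunit with histone-reading fingers, had the largest positive value of those lists, 0.84, which passed in no fit (limma adjusted p = 0.102 without a block). Over all genes at most 0.554% were called in any 1 fit.

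Markers of the labelled cell type were present. Of 11 measured colorectal epithelial markers, 7 lay above the median of every DLD1 array, among them EPCAM (16.5 to 16.7) and CDX2 (12.7 to 13.2). The other 4 (CDX1, VIL1, LGALS4 and CEACAM5) lay below it. The mean level of these markers spanned 10.998 to 11.137 in siControl and 10.946 to 11.077 in siBRG1, and 0 were called. All 8 endothelial markers, 6 of 7 fibroblast markers and 5 of 7 immune markers lay below every array median, and 0 of them were called. Over all genes 0.198% were called without a block, so most marker sets of these sizes would hold no call. In bulk RNA, fewer cells of a type and less RNA per cell cannot be told apart. Correlation across features was 0.991 to 0.994 within a DLD1 group and 0.987 to 0.994 between siControl and siBRG1 arrays. With 3 arrays a group, precision is limited throughout.

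Without a block, limma called 35 of 17687 genes in DLD1 (0.198%) at an adjusted p under 0.05. Of these, 12 were higher (0.0678%) and 23 lower (0.130%) after siBRG1. At an unadjusted p under 0.05, 1860 genes passed (10.5%). In each of the 35 called genes the groups did not overlap. Over all genes, 8.33% had every siBRG1 array above every siControl array and 7.19% had every one below.

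The titles number the arrays of each group 1 to 3, and the numbers behaved as pairs in DLD1. When each group's mean was subtracted, siControl and siBRG1 arrays of 1 number correlated at 0.485, 0.459 and 0.291 across genes. Differently numbered DLD1 arrays correlated at −0.374 to −0.030. Deviations from a group mean cancel out in each gene, so these negative values follow from the positive ones and add no separate support. Same-numbered arrays of different lines did not move together (−0.125 to 0.105 over 12 combinations). Within HCT 116 same-numbered arrays correlated at 0.299, 0.149 and 0.028, and siControl array 3 with siBRG1 array 2 at 0.229. The numbers behaved less clearly as pairs there, although the block within each line pairs these arrays too. A block in which the number was shared by all groups called 32 genes (0.181%; 12 higher and 20 lower), of which 26 were among the 35. A block within each line called 98 genes (0.554%), 41 higher (0.232%) and 57 lower (0.322%), of which 32 were among the 35. In the latter set 83 genes had groups that did not overlap, and 15 had overlapping groups whose pairs nevertheless all moved one way. At these shares of all genes, most gene lists described below would hold no call, so a count of 0 carries little weight.

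**Figure D1:**
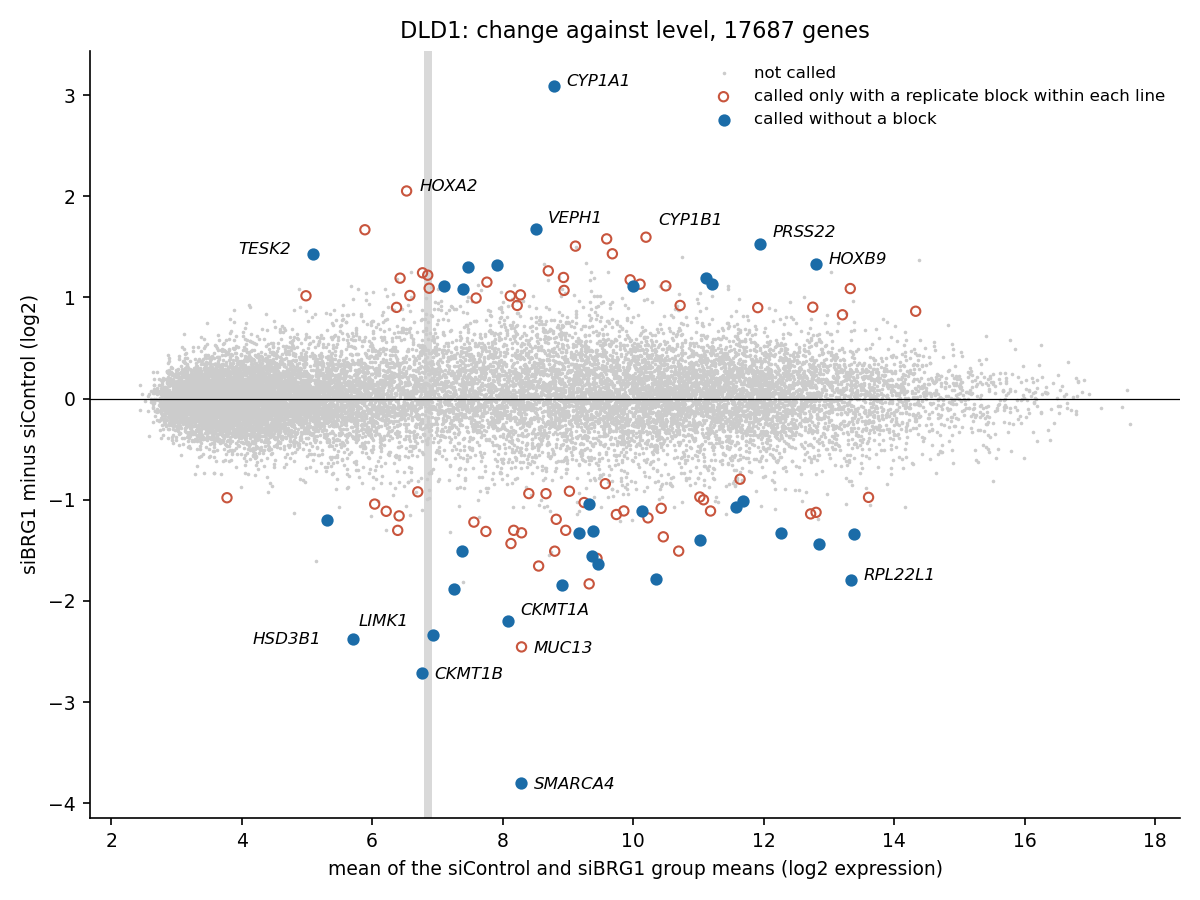
Change after siBRG1 (vertical axis, log2) against the mean of the siControl and siBRG1 group means (horizontal axis, log2 expression) for 17687 genes in DLD1. Filled points are the 35 genes called without a block, open circles those called only with a replicate block within each line, small grey points the rest, and the vertical grey band spans the medians of the 6 arrays (6.79 to 6.92). SMARCA4 lies lowest at −3.80 and CYP1A1 highest at 3.09.

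Among genes called without a block, the top rise was that of CYP1A1 (Entrez gene 1543), a cytochrome P450 that oxidises polycyclic hydrocarbons and is the classical target of the aryl hydrocarbon receptor. The receptor and its partner ARNT bind the letters GCGTG. The 120 bases directly before the CYP1A1 start are shown with the letters GCGTG and TATAAA in capitals. They are from RefSeq (GRCh38.p14, chr15:74725529-74725648, minus strand, read along the gene).
CYP1A1: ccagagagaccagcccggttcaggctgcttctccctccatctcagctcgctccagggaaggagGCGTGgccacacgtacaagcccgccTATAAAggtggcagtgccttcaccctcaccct
The GCGTG match begins 57 bases before the start and the TATAAA match 32 bases before it. Such matches are common and describe letters only, and whether the receptor binds at this GCGTG match was not tested. In the promoter windows of the tested genes, 46.1% of 14250 genes held GCGTG on either strand. Of called genes with a window, 6 of 9 rises and 15 of 22 falls held it without a block, and 17 of 34 rises and 27 of 47 falls with the block within each line.

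CYP1A1 read 8.05, 6.60 and 7.08 in siControl arrays and 11.13, 9.30 and 10.58 in siBRG1 arrays. Every siBRG1 array lay above every siControl array, and array 2 was the lowest in each group. The change was 3.09 (SE 0.46, limma adjusted p = 0.01), with 3.08, 2.70 and 3.50 in pairs 1, 2 and 3. Leaving out siControl array 3 or siBRG1 array 3 took the adjusted p to 0.0746 and 0.0875.

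CYP1B1, a related P450 with the same receptor, read 9.74, 8.96 and 9.49 in siControl and 10.99, 10.36 and 11.63 in siBRG1. These groups did not overlap either. Its change of 1.60 passed only with the block within each line (limma adjusted p = 0.0409, against 0.0672 without a block and 0.0576 with the shared block). Of 10 measured receptor targets, CYP1A1 was called higher without a block, beside 0.0678% of all genes. These 2 were called higher with the block within each line, beside 0.232%, and 0 were called lower. Of the 10, 7 were above 0 and 3 below, and the median change was 0.27, beside 0.01 over all genes. CYP1A2, the gene next to CYP1A1, stood at −0.12 (limma adjusted p = 0.954 without a block). The median was 0.12 without siControl array 3 and 0.21 to 0.38 without any 1 of the other DLD1 arrays. TIPARP, an ADP-ribosyltransferase of the same target group, stood at 0.70 and did not pass (limma adjusted p = 0.207 without a block). The receptor gene AHR itself had a change of 0.04 and ARNT one of 0.52, neither called. Of 17 other genes of xenobiotic metabolism, 0 were called in any fit, with SULT2B1 at 0.62, SULT1A1 at −0.57 and ABCC2 at −0.54.

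**Figure D2:**
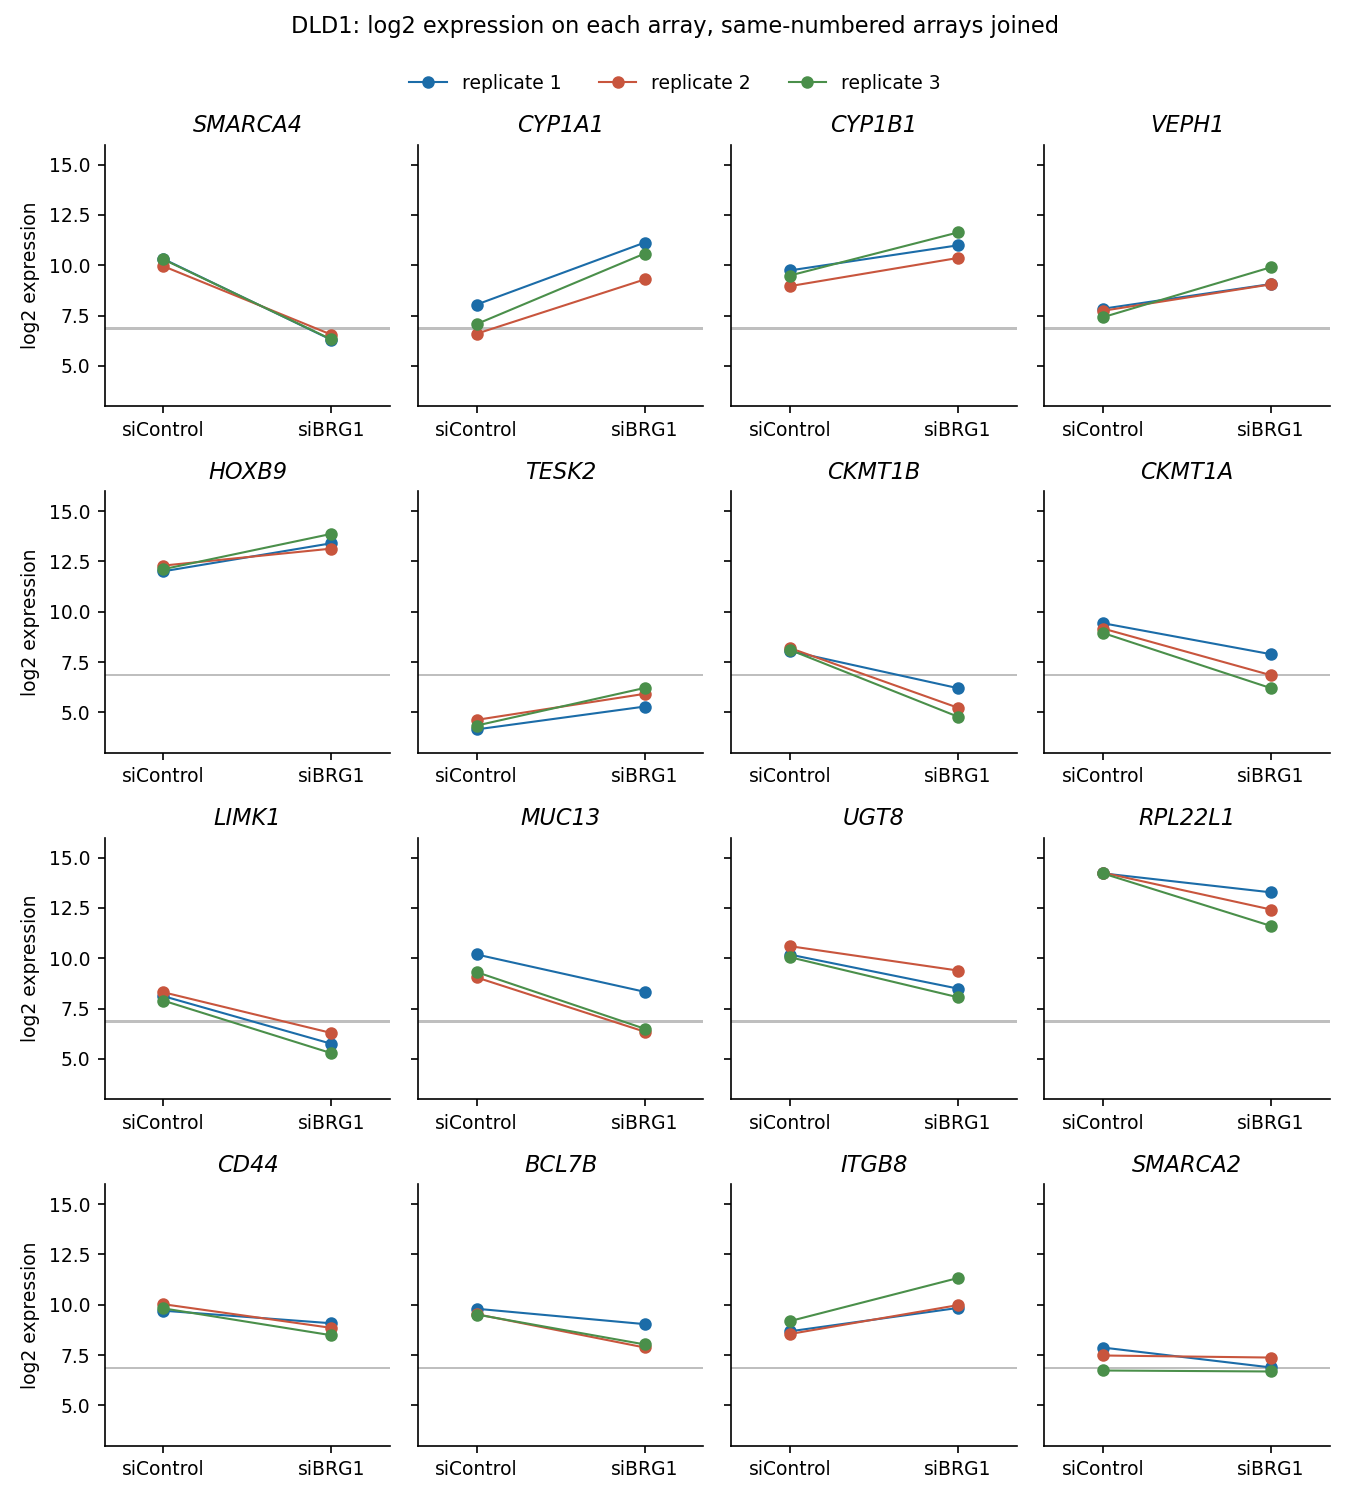
Log2 expression (vertical axis) of 16 genes on each DLD1 array, with a line joining the siControl and siBRG1 arrays of the same number. The horizontal grey band spans the medians of the 6 arrays (6.79 to 6.92). CYP1A1 rises and MUC13 falls on lines that start at different levels in each replicate, whereas SMARCA4 starts between 9.95 and 10.31.

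VEPH1, which encodes a PH-domain membrane protein, read 7.84, 7.74 and 7.42 in siControl and 9.07, 9.05 and 9.90 in siBRG1. Array 3 held both the lowest control and the highest knockdown value, so pair 3 rose by 2.48 and pairs 1 and 2 by 1.23 and 1.31. Over the groups the rise was 1.67 (SE 0.22, limma adjusted p = 0.00566), and without siControl array 3 the adjusted p was 0.0551. PRSS22, a secreted serine protease, rose by 1.53 (SE 0.26, limma adjusted p = 0.0307) from control values of 10.79 to 11.52. It did not pass without siControl array 1 or 3 or siBRG1 array 3 (0.107 to 0.161).

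Cofilin, which severs actin filaments, is switched off by LIM kinases and TES kinases. Of these families, LIMK1 and TESK2 moved in opposite directions, and the families as a whole were not tested. LIMK1 read 8.12, 8.31 and 7.89 in siControl and 5.75, 6.29 and 5.28 in siBRG1. The siBRG1 arrays all lay below the array medians, and the change was −2.33 (SE 0.27, limma adjusted p = 0.00175). TESK2 read 4.16, 4.63 and 4.35 in siControl and 5.29, 5.92 and 6.22 in siBRG1, with every siBRG1 array higher. All of its values lay below the array medians, where no detection call separates them from background, and the rise was 1.43 (SE 0.23, limma adjusted p = 0.0199). It did not pass without siControl array 1 or 3 or siBRG1 array 2 or 3 (0.052 to 0.146). The paralog LIMK2 had a change of −0.21 (limma adjusted p = 0.823). Of 14 measured cofilin kinases, phosphatases and cofilins, LIMK1 and TESK2 were the 2 called in any fit, and the list's median change was −0.04.

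HOX genes encode the transcription factors of body position, and colon epithelium keeps many of the HOXB cluster on. HOXB9 read 12.01, 12.29 and 12.12 in siControl and 13.41, 13.14 and 13.87 in siBRG1. The groups did not overlap, and the rise was 1.33 (SE 0.22, limma adjusted p = 0.0254). Without siControl array 1 or 3 or siBRG1 array 3 it did not pass (0.0932 to 0.161). HOXA2 read 4.57, 6.41 and 5.53 in siControl and 6.01, 8.32 and 8.34 in siBRG1. Its groups overlapped, and its change of 2.05 passed only with the block within each line (limma adjusted p = 0.0409, against 0.206 without a block). Of 23 measured HOX genes, 1 was higher without a block (0.0678% over all genes) and 2 with the block within each line (0.232%). In these fits 0 were lower, beside 0.130% and 0.322% of all genes. The median change was 0.14 (0.072 without siBRG1 array 3). Of the same cluster, HOXB6 and HOXB5 stood at 1.11 and 0.76 and passed in no fit, and HOXB7 stood at 0.10.

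The remaining rises called without a block were between 1.08 and 1.32. They comprised SPMIP4, a protein of sperm microtubules (1.32, SE 0.18, limma adjusted p = 0.00664), and CREBRF, a regulator of the CREB3 stress factor (1.30). They also took in the antisense RNA THAP9-AS1 (1.20), the tRNA methyltransferase relative TRMT1L (1.14), the brush-border aminopeptidase ENPEP (1.12), the membrane-trafficking protein VAT1 (1.11) and the scaffold protein AHNAK2 (1.08). CREBRF read 6.76, 7.28 and 6.41 in siControl and 8.14, 7.83 and 8.38 in siBRG1, without overlap, and pair 2 held both its highest control and its lowest siBRG1 value. With a block within each line it did not pass (limma adjusted p = 0.0566), and with the shared block neither CREBRF nor ENPEP did (0.0646 each).

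The deepest fall called without a block after that of SMARCA4 was that of CKMT1B, which is described with CKMT1A, its paralog on chromosome 15 for the same mitochondrial creatine kinase, which turns ATP and creatine into phosphocreatine. Their upstream sequence is shown as a description of the pair. It lies before the listed starts, so it cannot show whether array probes tell the transcripts apart. In RefSeq (GRCh38.p14) 153 bases aligned between their promoter windows were identical at 153 positions, of which 120 are printed, from chr15:43692569-43692688 and chr15:43592737-43592856 on the plus strand. The stretches lie at different distances, 217 to 98 bases before the CKMT1A start and 120 to 1 before the CKMT1B start. No letter is in capitals because no base differs.
CKMT1A: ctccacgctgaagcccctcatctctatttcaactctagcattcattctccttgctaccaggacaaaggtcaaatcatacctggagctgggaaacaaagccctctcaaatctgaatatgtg
CKMT1B: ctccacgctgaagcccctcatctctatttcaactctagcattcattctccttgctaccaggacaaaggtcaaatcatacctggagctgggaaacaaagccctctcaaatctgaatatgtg

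CKMT1B read 8.05, 8.20 and 8.11 in siControl and 6.21, 5.24 and 4.79 in siBRG1. CKMT1A read 9.43, 9.17 and 8.95 in siControl and 7.89, 6.85 and 6.21 in siBRG1. In both genes the siBRG1 arrays lay clear of the controls, and array 3 was the lowest. The change was −2.71 for CKMT1B (SE 0.31, limma adjusted p = 0.00175) and −2.20 for CKMT1A (SE 0.31, limma adjusted p = 0.00752). The genes are near-identical and probes may not tell them apart, so they are given as 1 uncertain pair. Probe and transcript sequences were not compared. The adjusted p of CKMT1A was 0.0501 without siControl array 1. Of 8 measured genes of creatine kinases and creatine supply these 2 were the ones called. The list's median change was −0.09, and CKB, the cytosolic brain-type kinase, had a change of 0.01.

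HSD3B1, a hydroxysteroid dehydrogenase of steroid hormone synthesis, read 8.11, 5.76 and 6.82 in siControl and 4.89, 4.32 and 4.34 in siBRG1. The groups did not overlap, although the control arrays alone spanned 5.76 to 8.11 and array 2 of them lay below the array medians. Its change of −2.38 (SE 0.44) had a limma adjusted p of 0.0443 without a block, 0.0133 with the block within each line and 0.0746 with the shared block. Without siControl array 1 or 3 or siBRG1 array 2 or 3 it was 0.0937 to 0.294. Of 20 measured genes of steroid synthesis and conversion it was the 1 called, and the median change was −0.09.

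UGT8, which makes galactosylceramide, read 10.18, 10.60 and 10.05 in siControl and 8.49, 9.39 and 8.06 in siBRG1. Array 2 was the highest in both groups, and pair differences were −1.69, −1.21 and −1.99. The change was −1.63 (SE 0.27, limma adjusted p = 0.0254), and it did not pass without any 1 of the siControl arrays or without siBRG1 array 3 (0.0716 to 0.149). Of 20 measured sphingolipid genes UGT8 was the 1 called in any fit, and the median change was −0.02.

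RPL22L1, a paralog that can replace RPL22 in ribosomes, read 14.22, 14.26 and 14.22 in siControl and 13.27, 12.42 and 11.61 in siBRG1. The controls lay close together, while the siBRG1 arrays were spread out below them. The change was −1.80 (SE 0.31, limma adjusted p = 0.0352 without a block, 0.0409 with the block within each line and 0.0513 with the shared block), and of the 6 DLD1 arrays only siBRG1 array 1 could be left out without losing the call (0.0717 to 0.16 for the others). RPL22 itself had a change of 0.11 (limma adjusted p = 0.889). RPL22L1 was the 1 gene called of 14 measured ribosomal protein paralogs, whose median change was 0.11.

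ZYG11B, a substrate receptor of the CUL2 ubiquitin ligase, read 11.35, 11.16 and 11.20 in siControl and 9.23, 9.90 and 9.23 in siBRG1. The groups were far apart, and it fell by 1.78 (SE 0.21, limma adjusted p = 0.00175). DESI1, a desumoylating isopeptidase, fell by 1.84 (SE 0.29, limma adjusted p = 0.0199), from control values of 9.52 to 10.37 to values of 7.83 to 8.18, and did not pass without siControl array 3 or siBRG1 array 2 or 3 (0.052 to 0.136). KIFBP, which binds kinesin motors, fell by 1.39 (SE 0.18, limma adjusted p = 0.00533), with siBRG1 values of 10.27 to 10.41. The paralogs DESI2 and ZYG11A stood at −0.02 and −0.00, and ZYG11A read 3.25 or less throughout. Each of the 3 was the only called member of its list: 15 genes around CUL2 and ZYG11, 14 of desumoylation and SUMO, and 16 of kinesins and KIFBP partners, with medians of 0.11, 0.07 and 0.04. The lists were chosen with earlier results of these data known, so their holding these calls carries no weight.

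Among the other falls, SLAMF6, a receptor better known from lymphocytes, fell by 1.88 (SE 0.32, limma adjusted p = 0.0332) from 8.57, 8.06 and 7.92 to 6.69, 6.85 and 5.38, without overlap. It did not pass without any 1 of the siControl arrays or without siBRG1 array 3 (0.0569 to 0.11). It was the 1 gene called of 13 measured immune cell genes. Of the 7 defining immune markers, PTPRC, CD3D, CD2 and MS4A1 lay at 4.997 or below on every DLD1 array, CD3E at 4.85 to 5.34, CD14 at 5.81 to 7.07 and CD79A, above every array median, at 7.36 to 7.62. Their mean level was 4.84 to 5.14 in siControl and 4.62 to 4.80 in siBRG1, and their part in the SLAMF6 result was not tested. CSTF2, a polyadenylation factor, and C2CD2, a C2-domain protein, fell without a block (limma adjusted p = 0.0398 and 0.0443) and did not pass with the block within each line (0.0532 and 0.0566). The 7 called falls outside the naming rule, given after their values were seen, were TOMM40 of the mitochondrial import channel (−1.43), the lactonase PON2 (−1.34), the exosome ribonuclease DIS3 (−1.33), the endogenous retroviral envelope gene ERVMER34-1 (−1.33), the kallikrein KLK1 (−1.20), the histone methyltransferase KMT5A (−1.07) and the mRNA export adaptor FYTTD1 (−1.01). With the shared block CSTF2, C2CD2, KMT5A and FYTTD1 did not pass (limma adjusted p = 0.0721, 0.0746, 0.0576 and 0.0646). For the 7 falls outside the naming rule, the effect of leaving out 1 array was not examined gene by gene.

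The block within each line brought in 66 genes that the comparison without a block had not called, 6 of which (ITGB8, CDKL2, PODXL, PARP12, BCL7B and MUC13) also passed with the shared block. The deepest fall was that of MUC13, a transmembrane mucin of the intestinal surface. It read 10.19, 9.05 and 9.31 in siControl and 8.33, 6.35 and 6.50 in siBRG1. No siBRG1 array reached a control array, and array 1 was high in both groups. The change was −2.45, with a limma adjusted p of 0.0801 without a block, 0.0163 with the shared block and 0.0258 with the block within each line. ITGB8, the integrin subunit that activates latent TGF-beta, read 8.68, 8.55 and 9.19 in siControl and 9.84, 9.98 and 11.33 in siBRG1. Here array 3 was high in both groups, and the change of 1.58 passed with either block (limma adjusted p = 0.0497 shared and 0.0329 within each line) and not without (0.0801).

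Among the other falls called only with the block within each line were the protease inhibitor SLPI (−1.51, limma adjusted p = 0.0133), the tight junction channel CLDN2 (−1.51, 0.0409), the neuropeptide GAL (−1.65, 0.0466) and PROM1, which carries the CD133 epitope (−1.31, 0.0409). The proton pump subunit ATP6V1C2 (−1.83, 0.015), the Golgi glycosyltransferase MGAT2 (−1.58, 0.0338), the insulin receptor adaptor GRB10 (−1.43, 0.0404), the phospholipid acyltransferase LPCAT1 (−1.33, 0.0409), the glycosidase MYORG (−1.37, 0.0466), the tryptophan dioxygenase TDO2 (−1.30, 0.0409) and the thiol methyltransferase TMT1A (−1.30, 0.0178) completed the 12 deepest with MUC13. In GRB10, PROM1 and TMT1A the groups overlapped, and the pairs moved one way in each. TMT1A, for example, read 9.11, 9.65 and 7.70 in siControl and 8.10, 8.17 and 6.28 in siBRG1.

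The corresponding rises had the chloride channel ANO2 as their clearest case of a difference seen only within pairs. ANO2 read 4.38, 4.15 and 6.63 in siControl and 6.33, 5.60 and 8.25 in siBRG1. The control array 3 lay above the siBRG1 arrays 1 and 2, while the pairs rose by 1.94, 1.44 and 1.62. Its change of 1.67 had a limma adjusted p of 0.313 without a block and 0.00689 with the block within each line. SCEL, a cornified envelope protein, stood at 1.51 (0.0261), the complement regulator C4BPB at 1.43 (0.0409) and MAP3K14, the kinase of non-canonical NF-kappaB signalling, at 1.26 (0.0426). ANXA2R (1.24), UBXN11 (1.22), the endosomal adaptor APPL2 (1.20), the transcription factor STAT4 (1.19) and the ciliary transport protein IFTAP (1.17) followed, beside HOXA2, CYP1B1 and ITGB8.

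The pairs differed in size. Over all genes the median absolute difference within a pair was 0.236 in pair 1, 0.227 in pair 2 and 0.286 in pair 3, and among the 35 called genes it was 1.20, 1.23 and 1.87. Pair 3 held the largest change in 28 of the 35 (pair 1 in 4 and pair 2 in 3) and in 70 of the 98. KIFBP, ZYG11B and HSD3B1 were among the exceptions, with their deepest fall in pair 1 (−1.65, −2.12 and −3.23). In 39 genes every pair passed a log2 change of 1, 16 upward (0.0905%) and 23 downward (0.130%), and 19 of the 35 were among them.

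**Figure D3:**
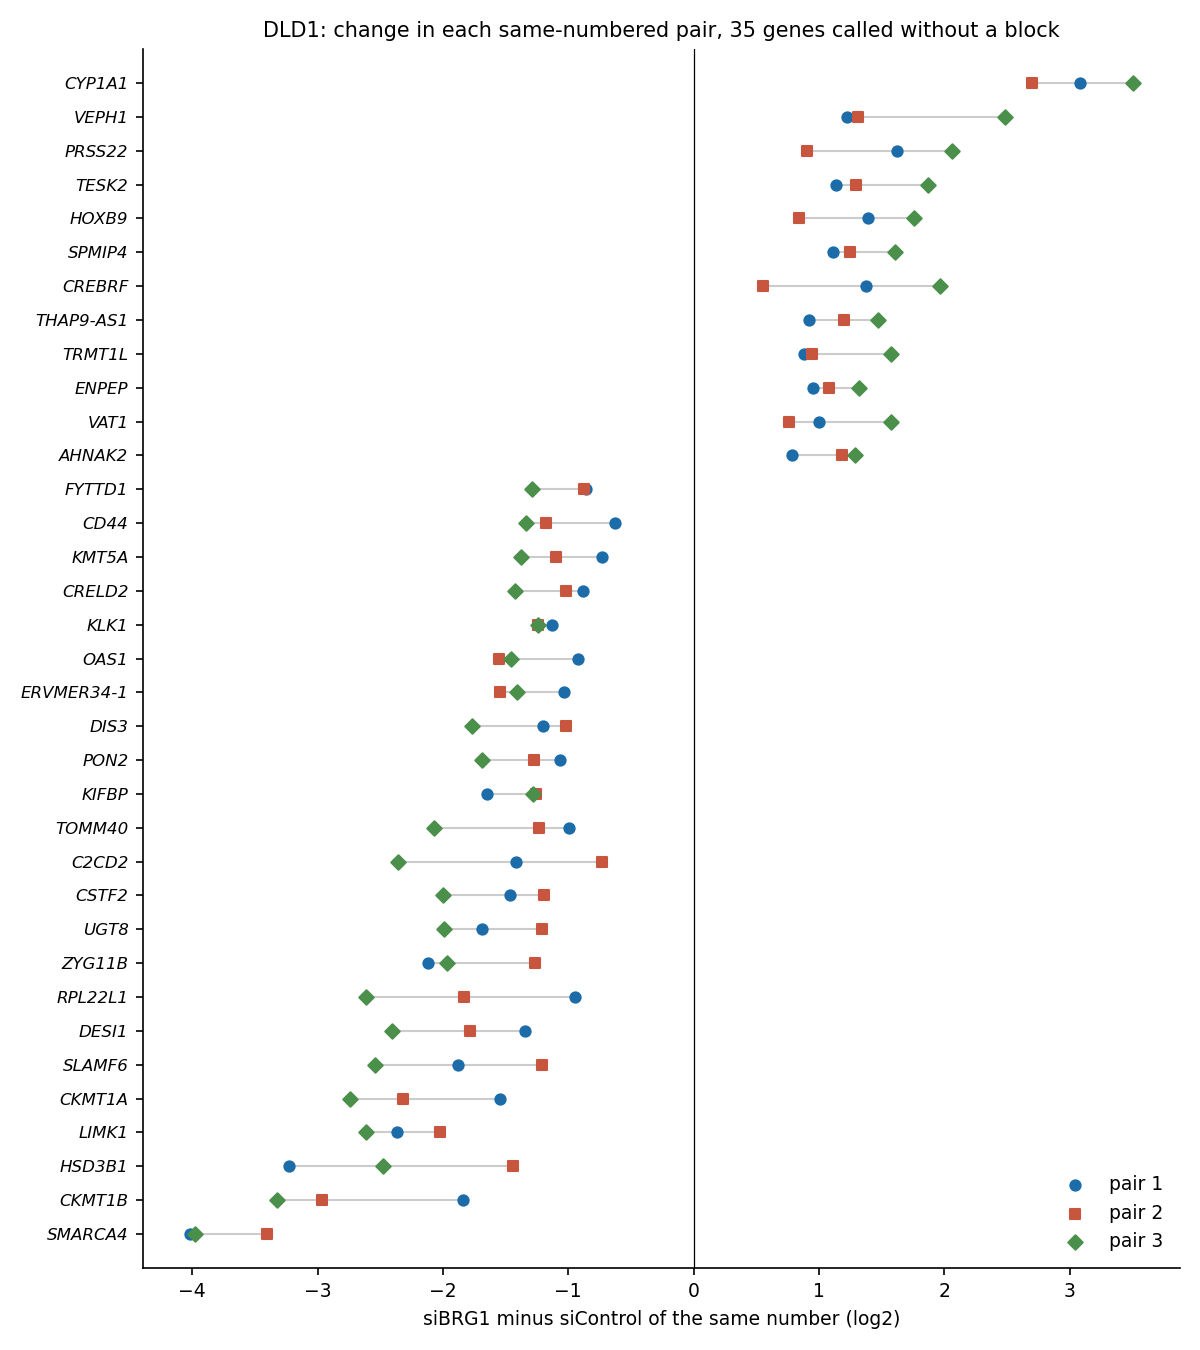
Difference between the siBRG1 and siControl arrays of the same number (horizontal axis, log2) in pairs 1, 2 and 3 for the 35 genes called without a block, ordered by mean change. Grey lines join the lowest and highest pair of a gene. The diamonds of pair 3 lie farthest from 0 in 28 of the 35 genes.

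The calls leaned on a few arrays. Of the 35 genes, 7 were still called without siControl array 3, 8 without siBRG1 array 3 and 11 without siControl array 1. In contrast 22 were kept without siControl array 2, 23 without siBRG1 array 2 and 29 without siBRG1 array 1. The total number of calls was 7, 8 and 12 in the first 3 cases and 66 without siBRG1 array 1. HCT 116 arrays enter the spread, and without HCT 116 siControl array 2 or 3 or siBRG1 array 2 or 3 it was 20, 17, 18 and 19. SMARCA4, CKMT1B, LIMK1, ZYG11B and KIFBP were called whichever of the 12 arrays was left out. With both arrays of a DLD1 pair left out, the block within each line called 3, 9 and 1 genes without pairs 1, 2 and 3, where 2 pairs remained. It called 64 without HCT 116 pair 2. The shared block called 7, 6 and 1 genes without DLD1 pairs 1, 2 and 3, and 49 and 21 without HCT 116 siControl array 1 and siBRG1 array 2. Among rises given above, SPMIP4 did not pass without siControl array 3 or siBRG1 array 3 (0.0612 and 0.0586). AHNAK2, CREBRF, ENPEP, THAP9-AS1, TRMT1L and VAT1 and the falls of CSTF2 and C2CD2 each lost the call without at least 4 of the 6 DLD1 arrays in turn (limma adjusted p up to 0.294).

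Genes of intestinal stem cells included a called fall. CD44, a hyaluronan receptor and Wnt target, read 9.71, 10.03 and 9.82 in siControl and 9.08, 8.85 and 8.48 in siBRG1. The groups did not overlap, and the change was −1.05 (SE 0.18, limma adjusted p = 0.0352). Of the 6 DLD1 arrays only siBRG1 array 1 could be left out without losing the call (0.0688 to 0.259 for the others). Of 22 measured intestinal and tumour stem cell markers, 1 was lower without a block (CD44) and 2 with the block within each line (CD44 and PROM1), and 0 were higher. The list's median change was −0.15 and 17 members were below 0, beside 0.01 and 47.9% over all genes. The median was −0.22 without siBRG1 array 3 and −0.099 and −0.10 without siBRG1 arrays 1 and 2. LGR5, the receptor that marks crypt base stem cells, read 9.92, 10.42 and 9.97 in siControl and 9.05, 9.64 and 8.68 in siBRG1, without overlap. Its value of −0.98 passed in no fit (limma adjusted p = 0.148 without a block and 0.063 with the block within each line). ASCL2, a crypt transcription factor, stood at −1.30 and did not pass either (0.114 and 0.0894). Of 25 Wnt targets and feedback genes, CD44 was the 1 called in any fit and the median change was −0.12.

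Lists of differentiated intestinal cells showed single calls. ENPEP was the 1 gene higher of 23 genes of absorptive cells (median −0.02), and it lost the call without any 1 of the 6 DLD1 arrays. MUC13 was the 1 lower, with either block, of 24 genes of goblet and secretory cells (median −0.12). In the latter list MUC2, the main gel-forming mucin of goblet cells, read 4.31 to 4.76 throughout. Of 19 genes of colorectal epithelial identity 0 were called in any fit, with ELF3 at 0.96, CEACAM5 at −0.57 and VIL1 at −0.55, and of 19 genes of the epithelial-mesenchymal switch 0 were called, with OVOL1 at −0.80, OVOL2 at 0.71 and SNAI1 at −0.71. Medians were 0.02 and −0.04.

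In cholesterol and fatty acid synthesis 0 of 27 measured genes were called in any fit. Of these, 24 were below 0 and 14 were lower in all 3 pairs, beside 47.9% and 18.4% over all genes, and the median change was −0.46. SCD, the stearoyl desaturase, read 15.55, 14.81 and 13.73 in siControl and 15.12, 13.83 and 11.95 in siBRG1. Its controls differed widely and its groups overlapped, and its change of −1.07 did not pass (limma adjusted p = 0.575 without a block and 0.0827 with the block within each line). IDI1 and HMGCS1, enzymes of the mevalonate pathway, stood at −0.88 and −0.85. The list's median was −0.02 in pair 1, −0.52 in pair 2 and −0.73 in pair 3, and it was −0.03 without siBRG1 array 3, −0.31 without siControl array 1, −0.72 without siControl array 3 and −0.90 without siBRG1 array 1. The part of single arrays in this value was not tested.

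Cell cycle genes held no call, where at most 0.554% of all genes were called in any 1 fit. Of 43 genes of replication licensing and the replisome 36 were below 0, beside 47.9% over all genes. Of these 43 genes 21 were lower in all pairs, beside 18.4% over all genes, and 0 were called in any fit. Their median was −0.31, with −0.24, −0.23 and −0.80 in pairs 1, 2 and 3 and −0.46 without siBRG1 array 1. LIG1, the replicative DNA ligase, had groups that did not overlap. Its change of −1.07 did not pass (limma adjusted p = 0.232), nor did those of CDCA7 (−1.01) and DSCC1 (−0.97), a subunit of a clamp loader. Of 46 genes of G2 and mitosis 39 were below 0, beside the same 47.9% over all genes, and 0 were called. Of the 46, 17 were lower in all pairs, beside 18.4% over all genes. Their median of −0.20 lay mostly in pair 3, with −0.006, −0.05 and −0.48 in pairs 1, 2 and 3. It came to −0.09 without siBRG1 array 3, and BIRC5, KIF14 and TACC3 stood at −0.86, −0.81 and −0.72. Of 22 G1 cyclins, kinases and inhibitors 0 were called (median −0.12), with CCND3 at −0.78, CDKN1B at 0.53 and CCNE1 at −0.50. The median of these 22 was −0.005, −0.014 and −0.34 in pairs 1, 2 and 3. The 15 genes of nucleotide supply had a median of −0.21 and 0 calls, with CTPS1 at −0.83, TYMS at −0.61 and DUT at −0.48. The nucleotide supply median was −0.11, −0.02 and −0.43 in pairs 1, 2 and 3, and −0.12 without siBRG1 array 3.

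In the endoplasmic reticulum list, CRELD2, a secreted chaperone-like protein, fell. It read 10.56, 10.42 and 11.08 in siControl and 9.68, 9.40 and 9.65 in siBRG1, without overlap, and the change was −1.11 (SE 0.20, limma adjusted p = 0.0395). It did not pass without siControl array 1 or 3 or siBRG1 array 2 or 3 (0.0932 to 0.185). Of 19 measured members 16 were below 0 and 12 were lower in all pairs, beside 47.9% and 18.4% over all genes. CRELD2 was the 1 called, and the median was −0.31. HSPA5, the main chaperone of this compartment, stood at −0.50 and did not pass (limma adjusted p = 0.282). Among 26 genes of ATF4 and amino acid supply, CREBRF was called higher without a block and ASNS, asparagine synthetase, lower with the block within each line (−1.12, limma adjusted p = 0.047, against 0.374 without a block). Of the 26, 13 were lower in all pairs, beside 18.4% over all genes, and the median was −0.29. It was −0.013 without siBRG1 array 3, −0.14 and −0.17 without siControl arrays 1 and 2, and −0.51 and −0.46 without siControl array 3 and siBRG1 array 1. ASNS read 13.25, 14.26 and 12.59 in siControl and 12.66, 13.04 and 11.02 in siBRG1, so its groups overlapped.

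Signalling and immune lists held few calls. OAS1, an interferon-induced synthetase of RNA sensing, fell by 1.31 (SE 0.24, limma adjusted p = 0.0443) from 10.13, 9.96 and 10.05 to 9.21, 8.40 and 8.59, and was the 1 called of 27 interferon response genes (median 0.06). With the shared block it did not pass (0.0746), nor with any 1 of the DLD1 arrays other than siBRG1 array 1 left out (0.0778 to 0.294). ID3, an inhibitor of basic helix-loop-helix factors and a BMP target, stood at −1.15 and was called only with the block within each line (limma adjusted p = 0.0409), the 1 of 20 genes of TGF-beta and BMP feedback. Of 22 integrin and focal adhesion genes, AHNAK2 was higher without a block and AHNAK2 and ITGB8 with either block, with a median of 0.06. List medians leaned on single arrays, and 17 of 47 changed sign when 1 DLD1 array was left out and 45 changed sign or moved by over 1.5 times. Over all genes 0.198%, 0.181% and 0.554% were called in the 3 fits, so most lists of these sizes would hold no call. In 25 of 47 lists no fit called a member. Among these were 28 genes of the MAPK and AP-1 response (JUN 0.98, FOSL1 −0.83, ATF3 0.77), 27 p53 targets (GDF15 1.37, TP53INP1 0.91, MDM2 0.56) and 21 Polycomb genes (CBX6 0.99, RING1 0.69, PHC1 0.48). Their medians were 0.10, −0.13 and 0.11. GDF15, a secreted stress cytokine, read 13.69, 14.30 and 13.10 in siControl and 15.41, 14.91 and 14.87 in siBRG1, without overlap, and did not pass (limma adjusted p = 0.118 without a block and 0.0694 with the block within each line).

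**Figure D4:**
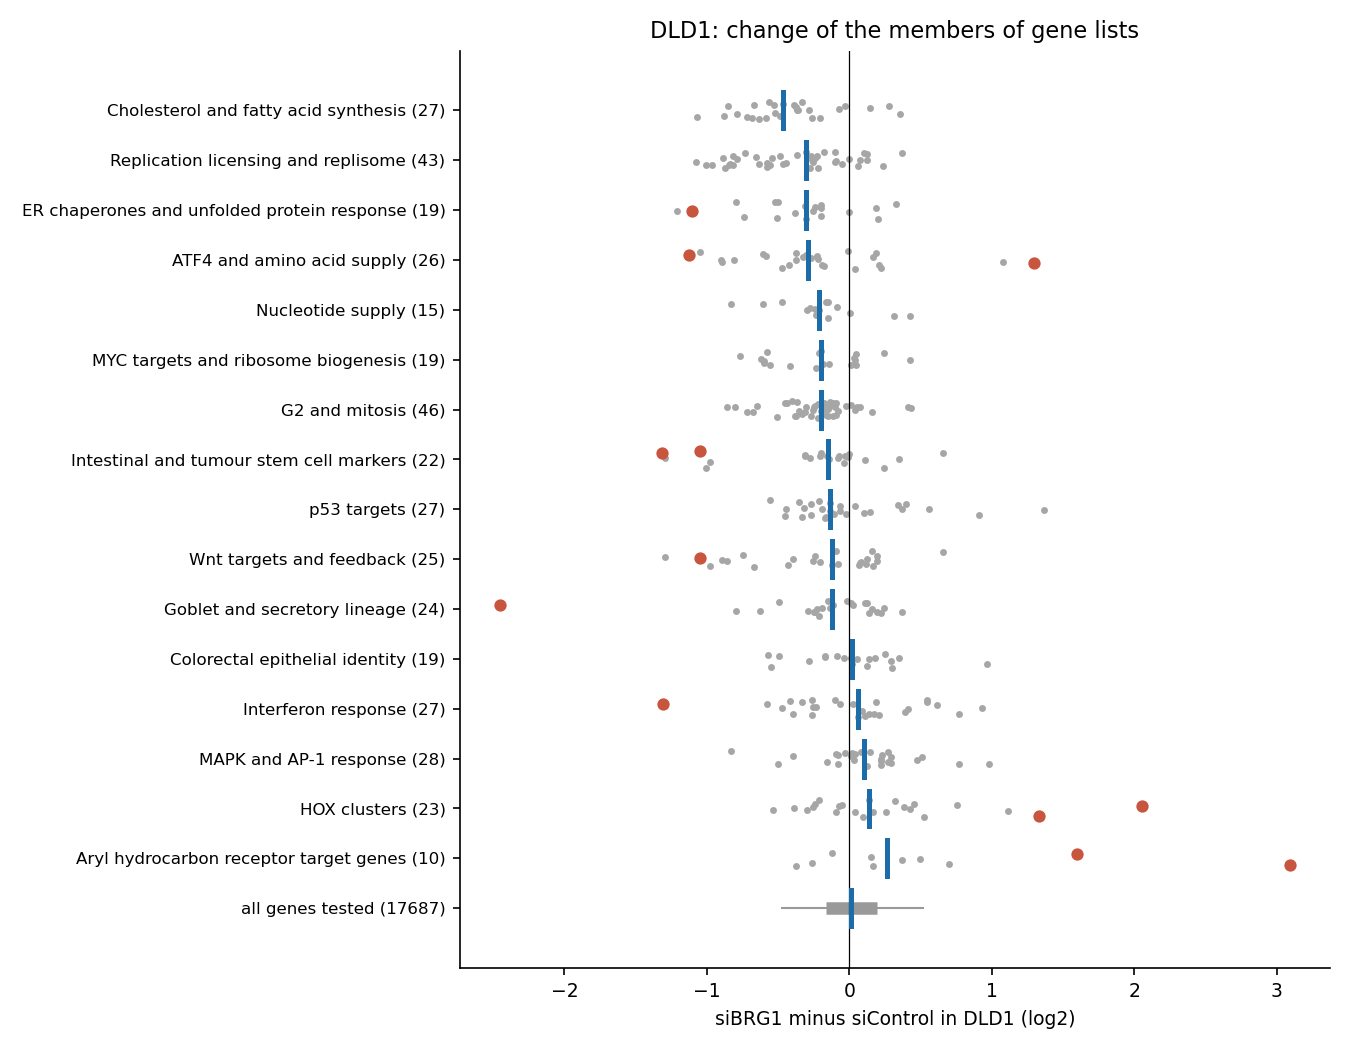
Change after siBRG1 in DLD1 (horizontal axis, log2) of each measured member of 16 gene lists, with the number measured in brackets. Grey points are members called neither without a block nor with a block within each line, larger red points are called members, and blue bars are list medians. For all 17687 genes the thick grey bar spans the 25th to 75th percentile and the thin one the 5th to 95th. The median of cholesterol and fatty acid synthesis lies lowest, at −0.46.

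HCT 116 gave a comparison for arrays labelled siBRG1 and siControl in another line. Of the 35 genes called in DLD1, 29 had the same sign there (8 of 12 rises and 21 of 23 falls). In HCT 116, where 6.95% of all genes were called, 17 of the 35 were called in the same direction and 1 (TESK2) in the opposite one. The 17 were 5 of the 12 rises, beside 2.82% of all genes called higher there, and 12 of the 23 falls, beside 4.13% called lower. SMARCA4, the siRNA target, is among the falls in both counts. The share of all genes with the same sign in both lines was not computed. Among the falls, LIMK1 changed by −2.42, KIFBP by −1.81 and ZYG11B by −1.66 in HCT 116, next to −2.33, −1.39 and −1.78 in DLD1. CKMT1B (−0.88), HSD3B1 (−0.01), SLAMF6 (0.07) and CD44 (−0.16) were not called in HCT 116. For these 4 the difference between the lines did not pass without a block (limma adjusted p = 0.103, 0.165, 0.0991 and 0.215).

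The difference between the lines was called in 59 of 17687 genes (0.334%), and 4 of the 35 were among them. The same DLD1 arrays entered both tests. CYP1A1 changed by 3.09 in DLD1 and −0.18 in HCT 116, a difference of 3.27 (SE 0.64, limma adjusted p = 0.0464). For TESK2 the changes were 1.43 and −0.85, and the difference was 2.28 (SE 0.32, limma adjusted p = 0.00663). VEPH1 changed by 1.67 and −0.23, which differed by 1.91 (SE 0.32, limma adjusted p = 0.017). AHNAK2 was higher in both lines, by 1.08 in DLD1 and 2.60 in HCT 116, and differed by −1.52 (SE 0.28, limma adjusted p = 0.0324). With the block within each line the difference was called in 102 genes (0.577%), and 11 of the 98 passed it in the same fit, these 4 and ANO2, ATP6V1C2, ERP27, HSD3B1, ITGB8, SLC7A7 and STARD13.

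**Figure D5:**
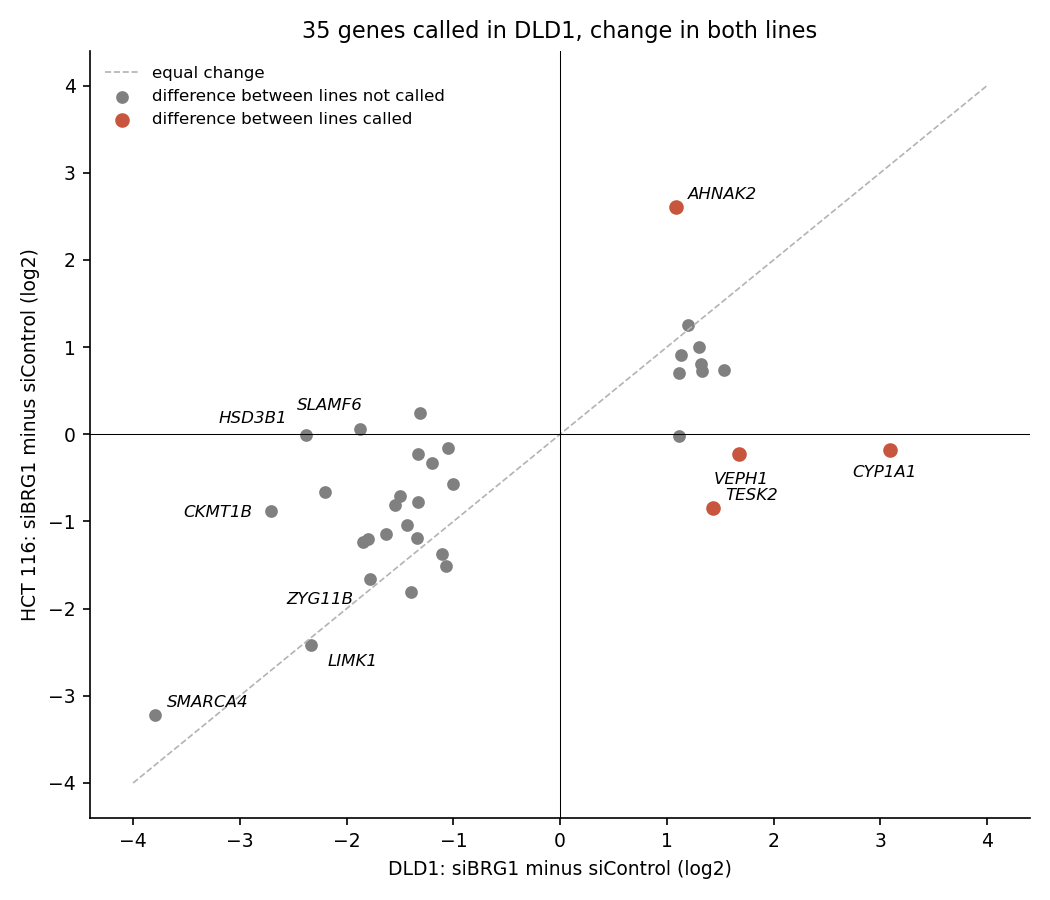
Change after siBRG1 in HCT 116 (vertical axis, log2) against the change in DLD1 (horizontal axis, log2) for the 35 genes called in DLD1 without a block. Red points are the 4 genes whose difference between lines was called, grey points the others, and the dashed line marks equal change. AHNAK2 lies above the line at 2.60, and CYP1A1, VEPH1 and TESK2 lie below 0 in HCT 116.

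In RefSeq order the 35 genes had 70 measured neighbours, of which 0 were called without a block, beside 0.198% of all genes. The 202 neighbours of all genes called by any fit included 0 called with the block within each line. In the promoter windows, the AP-1 letters TGANTCA (both strands) were present in 7.23% of all genes with a window. They were in 1 of 9 rises and 0 of 22 falls called without a block, and in 6 of 34 rises (17.6%) and 4 of 47 falls (8.51%) called with the block within each line. These shares describe letters and were not tested.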

How the data were processed

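Titles gave the line and siRNA of each of the 12 samples. In 4 HCT 116 samples the source name carries another number in the line or siRNA than the title does, and the title was used. The labels do not say that arrays of a group are separate cultures: p-values here measure the spread between these samples only, and that spread may be technical. Values are deposited log2 expression, which, per the submitters' processing notes, the authors made by RMA in Affymetrix Power Tools. Tool versions and the genome build were not given in the sources used here. From 94 to 112 values on each array lie above 16, more than a 16-bit scanner gives in log2, and how they arose is not given. There are no detection calls.

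Of 21448 features, 17709 had 1 symbol in the platform annotation, updated by Entrez ID, and 3739 had none. Where a gene had several features (20 genes) the brightest was kept, giving 17687 genes. limma 3.58.1 in R 4.3.3 (lmFit, eBayes) estimated 4 group means from all 12 arrays in 3 ways: without a block, with a replicate block shared by all groups, and with a replicate block within each line (8, 6 and 4 residual degrees of freedom). P-values were adjusted over all genes by Benjamini-Hochberg. The replicate numbers were taken as pairs in DLD1 from the data, where every same-numbered correlation was over 0.1. The labels do not state a pairing. Steps were tested on simulated data.

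The members and the 47 gene lists (952 names, 856 measured, 34 in more than 1 list) were chosen with earlier results of these data known. A list chosen around a gene already seen to change is no test of that gene's pathway. A rule named both SWI/SNF ATPase genes, the 12 largest rises and 12 largest falls called without a block and the 12 called only with one, up to 4 called members of a list (3 where 0 were called), paralogs, and called genes that differed between lines. It was applied to the block within each line after its calls were seen. Other genes were chosen after their values were seen. Lists got no set test. Promoters and motif matches came from RefSeq (GRCh38.p14).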

Additional observations from a re-analysis of the deposited data

Results flagged for a closer look

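A test of the difference between the lines picked out 4 of the 35 genes called in DLD1 without a block. The DLD1 change minus the HCT 116 change was 3.27 for CYP1A1, 2.28 for TESK2, 1.91 for VEPH1 and −1.52 for AHNAK2 (log2; limma adjusted p = 0.0464, 0.00663, 0.017 and 0.0324). Features without a gene symbol stood outside the comparison of genes. Of these 3739 features, 4 were called in DLD1 without a block, 2 higher and 2 lower after siBRG1.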

How the results depend on the processing

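The count of 35 genes called in DLD1 became 98 with a replicate block within each line, 106 with a replicate block in DLD1 only, 4 with DLD1 fitted alone and 295 with DLD1 fitted alone with the block, a fit with few degrees of freedom. It was 63 with a trended and robust prior, 128 with array weights, 3 in a test against a 1.5-fold change and 11 at an adjusted p under 0.01, and ranged from 7 to 66 without 1 array. The 32 genes of the block shared by all groups became 98 with the block within each line, 295 in DLD1 alone, 50 among genes above the median level, 113 with the trended prior, 274 with array weights, 3 against a 1.5-fold change, 8 at the stricter p, 1 to 7 without a DLD1 pair (6 without pair 2) and 21 to 49 without 1 HCT 116 array. The 98 genes of the block within each line became 295 in DLD1 alone, 642 above the median level, 199 above the lower quartile, 965 with the trended prior, 340 with array weights, 4 against a 1.5-fold change, 5 at the stricter p, 1 to 9 without a DLD1 pair and 64 to 125 without an HCT 116 pair. Their split of 41 higher and 57 lower was 25 and 58 after a further quantile normalization and 31 and 70 after centring on array medians. Of the 35 genes, the 4 that differed between lines were 7 with a replicate block in DLD1 only, 8 with array weights, 0 against a 1.5-fold change, 1 at the stricter p and 1 to 5 without 1 array. The causes were not tested. The SMARCA4 change stayed between −3.91 and −3.74 and was called in all 27 settings, as were CKMT1B and LIMK1. Near 0, DESI2 spanned −0.10 to 0.029 without 1 array, turning to 0.018 without siBRG1 array 1 and 0.029 without siBRG1 array 3. ZYG11A spanned −0.060 to 0.11, turning to 0.040 without siControl array 3 and 0.11 without siBRG1 array 2. Of 3749 values of 140 named genes, 3335 kept direction and side of the threshold, 232 lost the call, 178 gained one and 4 reversed. Of 1175 list medians 111 moved by over 1 SD of the pairs. The settings with a block in DLD1 only and the repeats for the block within each line were added after seeing the data. Arrays give no depth, and values below the array medians limit what can be said of low genes such as TESK2 and KLK1.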

Other observations

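Genes whose pairs all passed a log2 change of 1 without a call in any fit numbered 3. HOXB-AS3, an antisense RNA of the HOXB cluster, read 12.36, 12.20 and 12.66 in siControl and 13.55, 13.49 and 13.93 in siBRG1 (change 1.25, limma adjusted p = 0.0914 without a block). MITF, a basic helix-loop-helix factor of lysosome and pigment genes, had a change of 1.25 (limma adjusted p = 0.17), and SLC43A1, an amino acid transporter, one of −1.54 (limma adjusted p = 0.107). In each of the 3 the siBRG1 arrays lay clear of the siControl arrays. They were chosen after their values were seen.

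In YAP and TEAD targets, 12 of 17 measured members were above 0, beside 9207 of 17687 over all genes, with a median of 0.15 and 0 calls. The median was −0.05 in pair 1, 0.024 without siControl array 2 and 0.056 without siBRG1 array 2. The matricellular protein CCN1, the ankyrin-repeat protein ANKRD1 and the ectonucleotidase NT5E stood at 1.25, 1.18 and −1.06. Of 26 genes of hypoxia and glycolysis 13 were lower in all pairs, beside 18.4% over all genes, and 0 were called. Their median was −0.13 (−0.24 without siBRG1 array 1 and −0.21 without siControl array 2). ADM stood at 0.98, HK2 at −0.98 and VEGFA at −0.89. Of 18 NRF2 targets 0 were called, and OSGIN1 and AKR1B10 stood at 1.19 and −1.13. Of 18 NF-kappaB targets and chemokines 12 were above 0, beside 9207 of 17687 over all genes, and 0 were called. TNFAIP3, a brake on that pathway, stood at 1.17 (limma adjusted p = 0.169 without a block and 0.0532 with the block within each line).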
